A study of Ovis aries with 6 samples.

Results

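Blood endothelial cells line the blood vessels, and in the rumen wall they form the vessels beneath the keratinised epithelium that absorbs short-chain fatty acids. Nuclei of this class were chosen from single-nucleus RNA sequencing of the ventral-sac rumen epithelium by the transcripts they held. A nucleus was a member when it passed 2 quality limits, 500 detected genes or more and no more than 10% of its UMIs (unique molecular identifiers, each standing for 1 captured transcript) from mitochondria, and held at least 1 UMI of at least 3 of the 7 genes PLVAP, ADGRL4, VWF, FLT1, EMCN, KDR and PECAM1. It also had to hold 0 UMIs of PROX1, a lymphatic regulator, and of PTPRC, a pan-leukocyte gene, at most 1 of the keratinocyte genes TP63, DSG1, DSC2 and COL17A1, and at most 1 of the stromal genes PDGFRA, TWIST2, MYH11 and NOTCH3. These limits gave 1337 members of 40419 nuclei. The animals were 6 male lambs, 3 in the group MGHS and 3 in the group MGNS, with 1 10x library per lamb. The study's subject is supplementary feeding of grazing sheep. The labels call the tissue rumen epithelial, spell out neither group name, and give no breed or age. Each lamb is a separate animal, so the animal is the replicate.

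The endothelium of blood vessels differs along the vessel. Arterial cells express Notch ligands and the gap junction gene GJA5, capillary cells exchange solutes through fenestrae and caveolae, and venous cells carry the adhesion molecules through which leukocytes leave the blood. Its growth and quiescence are set by vascular endothelial growth factor (VEGF) receptors, the angiopoietin receptor TEK, Notch and bone morphogenetic protein (BMP) signals from the flowing blood and the surrounding tissue.

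Library totals lay between 34418856 and 59997793 UMIs, and the summed UMIs of members were 894204, 1201997 and 1240805 in MGHS 1 to 3, against 512498, 859844 and 937192 in MGNS 1 to 3. A member held a median of 3722 UMIs and 1947 genes, with medians of 3234.5 to 5110 UMIs among animals. At most 49 barcodes were shared between any pair of libraries, and 0 between members. Doublet scores marked 2.19% to 9.95% of members in 5 animals by the caller's threshold, and 1.09% in MGNS 1 by the highest scores, since the threshold marked under 0.5% of nuclei there, and these nuclei were kept and left out as an alternative. Levels are counts per 1e6 UMIs of the summed members (CPM), which compare animals for 1 gene but not genes with each other.

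The members matched the label on the genes that chose them, which is a description of the rule and not a finding. PECAM1, an adhesion molecule of endothelial contacts, was detected in 96.7% of members, the adhesion receptor gene ADGRL4 in 89.1%, the VEGF receptor FLT1 in 83.5%, the clotting factor carrier VWF in 83.2%, the sialomucin EMCN in 82.4%, the fenestra diaphragm gene PLVAP in 81.1% and the VEGF receptor KDR in 71.7%. Keratinocyte nuclei were chosen to hold at most 1 of these 7 genes, so low detection there follows from that choice. In them PLVAP was detected in 1.21%, FLT1 in 10.7% and VWF in 11.6%. The median depth was 7976.5 to 10120 UMIs in keratinocyte nuclei and 3234.5 to 5110 UMIs in members, over the 6 animals. TP63 was detected in 9.27% of members and in 9.03% of fibroblast nuclei, both of which could hold at most 1 of the rule's keratinocyte genes. Of the nuclei that passed the other limits, 276 held 2 of the 7 genes and lay just outside, 126 held 3 and lay just inside, and 612 held all 7.

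Genes outside the rule gave the same identity. The rule used the contrast of members with the rest, so their ratios are also descriptions. Among protein coding genes with at least 50 CPM in members, the highest ratio of mean CPM was that of SEMA3G, a secreted semaphorin of arterial endothelium, with 58.0 CPM in members and 0.92 CPM in the rest, a ratio of 63.1. It was followed, leaving out the rule's own genes, by SERTM1 (ratio 59.3), TMEM44 (58.7), the venular chemokine receptor ACKR1 (54.8), the endothelial matrix gene MMRN2 (54.0) and CYYR1 (52.2). Further down came the adhesion molecule P-selectin, SELP (51.7), the mucosal addressin MADCAM1 (50.8), TM4SF18 (49.4), ILDR2 (48.9), the nuclear receptor NR5A2 (48.4), APOLD1 (48.2) and SH3TC2 (47.2). MADCAM1, which captures gut-homing lymphocytes, had 63.5 CPM in members and 1.25 CPM in the rest.

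Of all genes tested, 16.3% had at least 2 times the mean CPM of the rest in members, and the endothelial lists stood above that share. The count was 19 of 27 for endothelial transcription factors, among them ERG, an ETS factor of endothelial identity, with 799 CPM in members and 21.6 CPM in the rest. It was 12 of 21 for junctions, among them the vascular cadherin CDH5 (ratio 41.0) and the tight junction gene CLDN5 (30.2), and 12 of 16 for Notch, with the ligand DLL4 at a ratio of 39.8. Of 5 angiopoietin and TIE genes 4 passed, with the receptor TEK at 35.0, of 21 BMP and TGF-beta genes 14, with the co-receptor ENG at 23.2, and of 24 basement membrane genes 17, with the collagen COL4A1 at 19.9. The same held for 8 of 11 genes of fenestrae and caveolae, 12 of 15 of coagulation and 9 of 14 of leukocyte adhesion. GPIHBP1, the capillary anchor of lipoprotein lipase, had a ratio of 61.7, the nitric oxide synthase NOS3 one of 10.6 and the adrenomedullin co-receptor RAMP2 one of 27.6. Of the keratinocyte markers 0 of 7 and of the fibroblast markers 0 of 8 reached 2-fold. Among the other marker lists it was 3 of 8 mural, 1 of 5 lymphatic, 1 of 2 B and plasma, 0 of 3 T and NK, 0 of 1 myeloid and 0 of 1 glial genes.

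The members were then clustered without the rule's genes, with neighbours taken evenly from each library, into 10 subgroups, described here by the genes that led them. Subgroup 6, with 132 nuclei, was arterial-like: 15 of 18 arterial markers were at least 2-fold above the other members. GJA5 stood at 272 CPM there and at most 40.0 CPM in any other subgroup, the Notch target HEY1 at 181 CPM, and the arterial ephrin EFNB2 at 1525 CPM. Subgroup 8, with 109 nuclei, was venous-like, with 9 of 14 venous markers at least 2-fold up. ACKR1 stood at 608 CPM there and at most 26.8 CPM elsewhere, the interleukin-1 receptor IL1R1 at 662 CPM, and VWF at 2070.4 CPM.

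Subgroups 2 and 3, with 416 and 269 nuclei, held the highest PLVAP and ADGRL4 levels and were not named, because none of the vessel type markers was among their 10 leading genes. Subgroup 2 was led by the transporter genes SLCO3A1 and SLC16A6, the chemokine scavenger ACKR3, the heat shock gene HSPH1 and the growth factor antagonist SPRY1. Subgroup 3 was led by MADCAM1, CPVL and the mitotic genes TOP2A and CENPE. MADCAM1 was detected in 20.4% of its nuclei and TOP2A in 7.81%. PLVAP stood at 1677 CPM in subgroup 2 and 1261 CPM in subgroup 3, against 181 CPM in the arterial-like and 360.4 CPM in the venous-like subgroup.

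Part of the members carried genes of other cell classes. Subgroups 4, 5, 7, 9 and 10 were led by myeloid, keratinocyte, lymphatic, fibroblast and mural genes in this order, and held 173 nuclei, 12.9% of all. The rule's 7 genes were lower there than in the other members, at mean log2 ratios of -0.48 to -3.27. They were also lower in arterial-like subgroup 6 (-1.30) and venous-like subgroup 8 (-0.82), so this level does not set the 5 subgroups apart. Subgroup 5 had a median of 11196 UMIs per nucleus, and 55.6% of subgroup 5 and of subgroup 9 were marked as doublets. Subgroup 7 held 18 nuclei led by CCL21 and RELN, in which PROX1 is at 0 by the rule and VWF was at 0. Subgroup 1, with 238 nuclei, kept endothelial levels of the rule's genes, with PLVAP at 1258 CPM, and was led by CA1, KRT5, KRT15 and SELENBP1, genes of the rumen epithelium. KRT5, a basal keratin, stood at 218 CPM there and at 14.1 to 62.7 CPM in the other 9 subgroups. The main gene results below are also given without these subgroups, an alternative chosen after the data were seen.

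**Figure D1:**
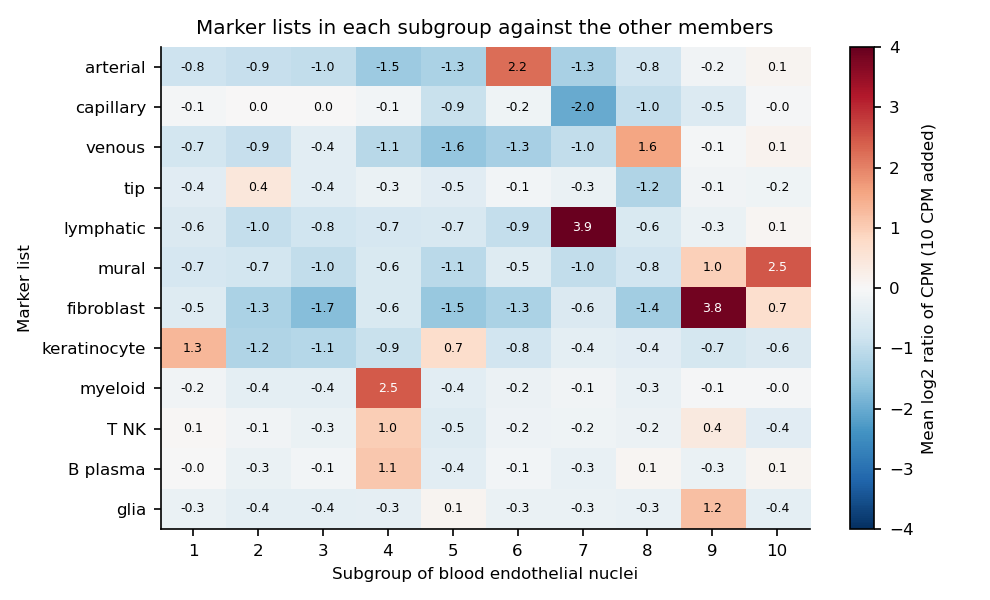
Mean log2 ratio of CPM in each of the 10 subgroups of blood endothelial nuclei (columns) against the other members, for 12 marker lists (rows), with 10 CPM added before the ratio. The arterial list is highest in subgroup 6, the venous list in subgroup 8, and lists of other classes lead subgroups 1, 4, 5, 7, 9 and 10.

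The first comparison between groups asked whether the share of blood endothelial nuclei differed. Members made up 3.54%, 5.05% and 3.32% of nuclei in MGHS 1 to 3, against 1.97%, 2.32% and 3.53% in MGNS 1 to 3. The exact 95% intervals (Clopper-Pearson), which cover counting error only, were 3.07% to 4.05%, 4.53% to 5.62% and 2.95% to 3.72% in MGHS, and 1.59% to 2.41%, 2.00% to 2.67% and 3.12% to 3.99% in MGNS. MGHS 2 was the highest and MGNS 1 the lowest, and MGNS 3 lay above MGHS 3, so the groups overlapped. The means were 3.97 ± 0.943% in MGHS and 2.61 ± 0.821% in MGNS (SD, n = 3 each). The difference of 1.36 percentage points did not pass (two-sided exact permutation p = 0.2). With 3 animals against 3 this test cannot give a p under 0.1. Thinning every nucleus to 1000 UMIs left a difference of 1.30 points (exact permutation p = 0.2). Without the 173 nuclei led by other classes it was 1.20 points, and without subgroup 1 as well it was 0.374 points, with 2.50% in MGHS and 2.13% in MGNS (exact permutation p = 0.7).

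Subgroup shares were spread widely among animals. The arterial-like subgroup made up 9.45%, 8.72% and 8.33% of members in MGHS 1 to 3, against 9.78%, 13.7% and 10.7% in MGNS 1 to 3. All 3 MGHS values were below all 3 MGNS values, with a difference of -2.55 points between means (exact permutation p = 0.1, 0.5 adjusted over the 10 subgroups), so the difference did not pass, with no overlap at a coarser clustering either (-2.04 points, exact permutation p = 0.1) and with overlap at a finer one (-2.38 points, exact permutation p = 0.2). The arterial genes GJA5 and PCSK5, which belong to its leading genes, were also lower in MGHS members. The venous-like subgroup made up 5.97%, 6.54% and 7.64% in MGHS 1 to 3, against 6.52%, 9.84% and 11.9% in MGNS 1 to 3, and the groups overlapped (exact permutation p = 0.3, 0.75 adjusted). At a coarser clustering no MGHS animal overlapped with MGNS for the venous subgroup, with a difference of -3.95 points (exact permutation p = 0.1, 0.3 adjusted over 6 subgroups).

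Subgroup 2 made up 29.4%, 48.9% and 9.03% of members in MGHS 1 to 3, against 17.4%, 27.9% and 42.5% in MGNS 1 to 3. Subgroup 3 made up 22.4%, 11.5% and 14.6%, against 44.6%, 38.3% and 13.5%, and both overlapped between the groups. Subgroup 1 made up 18.9%, 11.5% and 47.9% of members in MGHS 1 to 3, against 5.43%, 4.92% and 4.37% in MGNS 1 to 3. Its leading genes are among those with the smallest p between the groups, so this share is given as a description and not read as a number of cells.

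**Figure D2:**
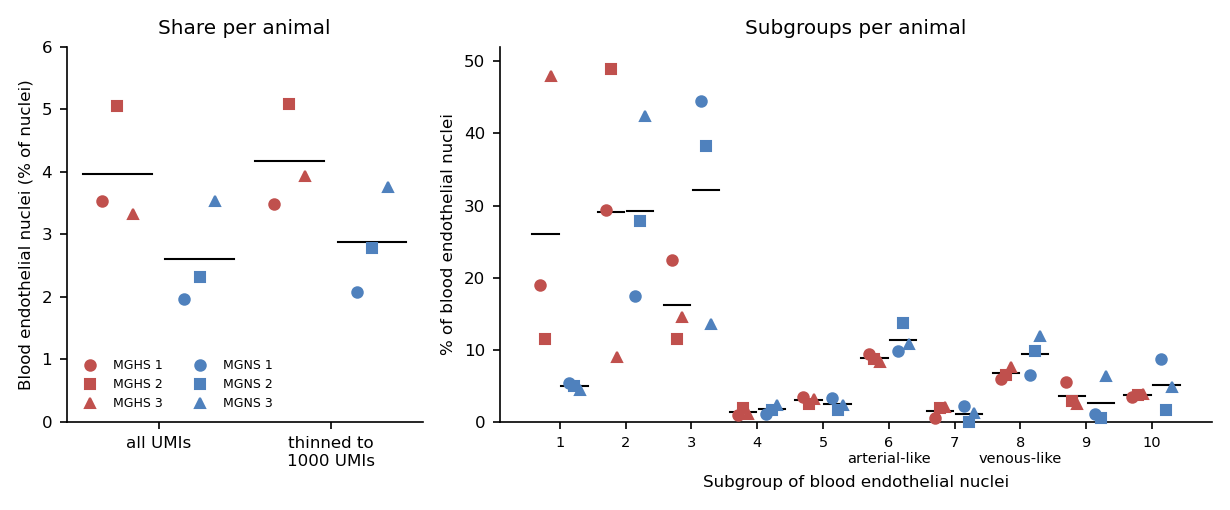
Left, blood endothelial nuclei as a percent of all nuclei past the filters, for all UMIs and after thinning each nucleus to 1000 UMIs; right, the 10 subgroups as a percent of blood endothelial nuclei. Each point is 1 animal and each line a group mean, and MGHS 1 to 3 at 3.54%, 5.05% and 3.32% overlap with MGNS 1 to 3 at 1.97%, 2.32% and 3.53%.

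The next comparison asked which genes differed between MGHS and MGNS within the blood endothelium. UMIs of members were summed per animal and 9373 genes were tested with edgeR's quasi-likelihood test and Benjamini-Hochberg adjustment. At an adjusted p of 0.05 the test called 0 genes (0.0%), and the smallest adjusted p was 0.0920. At an unadjusted p under 0.05 it held 829 genes (8.84%), of which 481 were higher (5.13%) and 348 lower (3.71%) in MGHS. In 1397 genes (14.9%) the animals of the groups did not overlap, with 8.41% of genes higher in every MGHS animal and 6.5% lower. DESeq2 called 64 genes (0.683%), 45 higher (0.48%) and 19 lower (0.203%) in MGHS, and limma-voom called 0. Of the 45 that DESeq2 called higher, 33 had over 2 times the members' mean CPM in keratinocyte nuclei, and of the 19 it called lower 2 had. The share of all tested genes above that limit was not computed, so these counts are a description only. The 45 include MYH11, a gene of the rule that is not read as a result. Values below are therefore levels in 3 animals per group that did not pass the edgeR test.

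Among the 20 genes with the smallest p and no overlap between groups, 5 were lower in MGHS. IGFBP3, a secreted carrier of insulin-like growth factors (IGF), stood at 669.9, 970.1 and 469 CPM in MGHS 1 to 3, against 2185, 1779 and 2047 CPM in MGNS 1 to 3. All MGHS animals lay below all MGNS animals. The log2 fold change was -1.52 ± 0.26 (standard error, SE), with an edgeR adjusted p of 0.141. IGFBP3 was 28.0 times as high in members as in the rest of the nuclei. Without the subgroups led by other classes and subgroup 1, its log2 fold change was -1.28.

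PLCB4, a phospholipase C that acts downstream of G-protein-coupled receptors, stood at 256, 251 and 221 CPM in MGHS 1 to 3, against 624, 493 and 587 CPM in MGNS 1 to 3. The groups were far apart, at a log2 fold change of -1.24 ± 0.17 (adjusted p by edgeR = 0.0920), and -0.89 without those subgroups. ACER2, a ceramidase of the Golgi, stood at 81.6, 106 and 75.8 CPM in MGHS 1 to 3, against 246, 214 and 194 CPM in MGNS 1 to 3. Its log2 fold change was -1.32 ± 0.20 (edgeR adjusted p = 0.0953), and -1.23 without those subgroups. PCSK5, a proprotein convertase on the arterial list, stood at 98.4, 95.7 and 108 CPM in MGHS 1 to 3, against 183, 356 and 302 CPM in MGNS 1 to 3. Its log2 fold change was -1.50 ± 0.24 (edgeR adjusted p = 0.112), and -1.17 without those subgroups. KRT23, an epithelial keratin, was the other lower gene, and it reached 610.5 CPM in subgroup 5.

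Within the subgroups the lower genes were as follows. IGFBP3 in subgroup 2 stood at 976, 1397 and 762 CPM in MGHS 1 to 3, against 4002, 3806 and 3842 CPM in MGNS 1 to 3. In subgroup 3 it stood at 267, 366 and 213 CPM, against 1756, 1250.3 and 1238 CPM, and in subgroup 1 at 280.1, 436 and 329 CPM, against 3220.2, 1063 and 912 CPM. These 3 subgroups thus showed the gap without overlap, while the arterial-like subgroup did not: there IGFBP3 stood at 2515, 1931 and 2852 CPM in MGHS 1 to 3, against 3504, 1638 and 2013 CPM in MGNS 1 to 3. The venous-like subgroup had at most 55.5 CPM in MGHS and 109.8 CPM in MGNS. PLCB4 was highest in the arterial-like subgroup, at 1078, 1079 and 1284 CPM in MGHS 1 to 3, against 3228, 1617 and 2226 CPM in MGNS 1 to 3. PLCB4 did not overlap in subgroup 2, with at most 112 CPM in MGHS and at least 168 CPM in MGNS, nor in subgroup 3, with at most 164 CPM and at least 226 CPM. In the venous-like subgroup PLCB4 overlapped, at 1364, 1203 and 1041 CPM, against 1393, 1386 and 1080.0 CPM. PCSK5 in the arterial-like subgroup stood at 567, 716 and 879 CPM, against 934, 1283 and 1986 CPM, and in the venous-like subgroup at 110.0, 154 and 167 CPM, against 753, 891 and 192 CPM. ACER2 was highest in the venous-like subgroup, at 374, 576 and 236 CPM in MGHS 1 to 3, against 565, 719.6 and 842 CPM in MGNS 1 to 3, where MGHS 2 overlapped with MGNS 1. These subgroup values are descriptions without a test, and whether the gap differed between subgroups was not tested. Some rest on few nuclei, such as 5, 9 and 11 nuclei of subgroup 1 in MGNS 1 to 3. In MGNS 1 the arterial-like subgroup held 9 nuclei and the venous-like subgroup 6.

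SELENOW, a small selenoprotein of redox regulation, was higher in MGHS with and without the subgroups that carried other classes' genes. It stood at 138, 143 and 179 CPM in MGHS 1 to 3, against 60.5, 52.3 and 66.2 CPM in MGNS 1 to 3. The groups did not overlap, at a log2 fold change of 1.35 ± 0.20 (adjusted p by edgeR = 0.0953), and 1.30 without the subgroups led by other classes and subgroup 1. In the venous-like subgroup it stood at 198, 205 and 222 CPM in MGHS 1 to 3, against 0, 75.2 and 91.5 CPM in MGNS 1 to 3. In the arterial-like subgroup the values were 193, 148 and 149 CPM, against 42.5, 83.5 and 26.7 CPM. In none of the 5 subgroups of the subgroup plot did SELENOW overlap between the groups, by a narrow margin in subgroup 1 (lowest MGHS 85.7 CPM, highest MGNS 85.5 CPM) and in subgroup 3 (91.1 CPM and 90.2 CPM). Few nuclei stood behind some of these values, with 5, 9 and 11 nuclei of subgroup 1 in MGNS 1 to 3. The 0 CPM in the venous-like subgroup of MGNS 1 came from 6 nuclei. Such values cannot show a separation of the groups within a subgroup. SELENOW was also higher elsewhere, with a mean of 146 CPM in MGHS and 42.2 CPM in MGNS keratinocyte nuclei, and 71.5 CPM and 21.2 CPM in fibroblast nuclei.

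**Figure D3:**
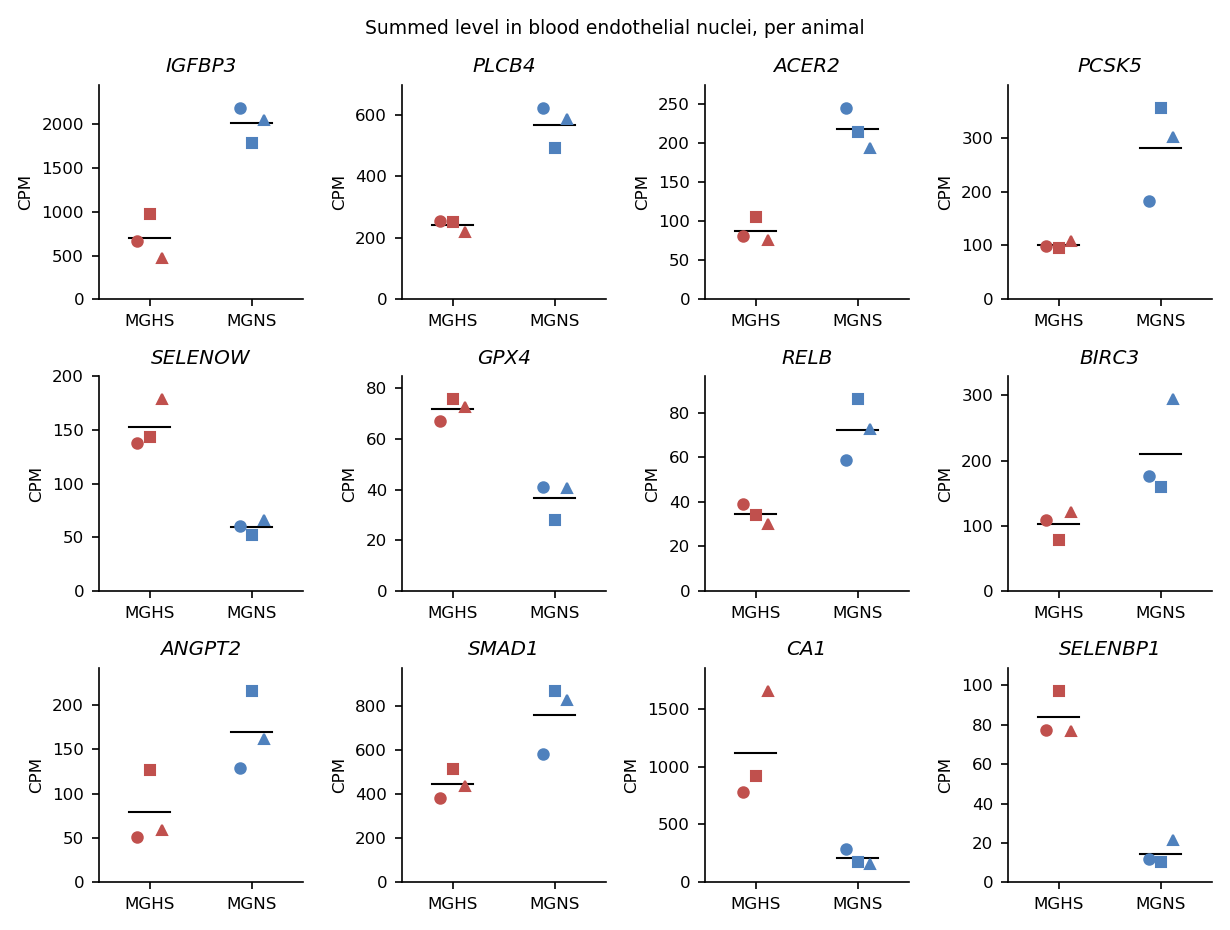
Summed CPM in blood endothelial nuclei of each animal for 12 genes, with MGHS at the left and MGNS at the right of each panel; points are animals and lines group means. IGFBP3, PLCB4, ACER2, PCSK5, RELB, BIRC3, ANGPT2 and SMAD1 are lower and SELENOW, GPX4, CA1 and SELENBP1 higher in every MGHS animal, while none passed the edgeR test at an adjusted p of 0.05.

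**Figure D4:**
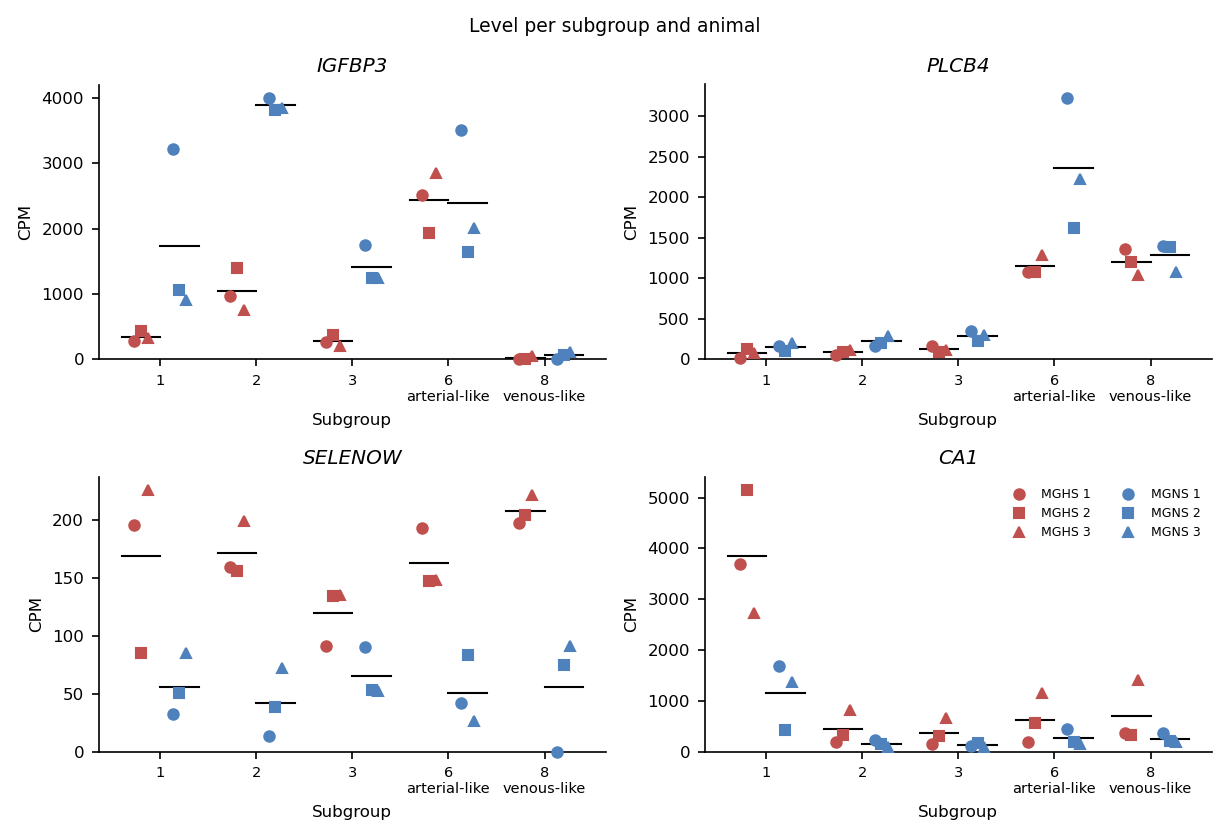
CPM of IGFBP3, PLCB4, SELENOW and CA1 in each animal within the 5 larger subgroups of blood endothelial nuclei, with MGHS left of MGNS; points are animals and lines group means. The IGFBP3 groups do not overlap in subgroups 1, 2 and 3 and overlap in the arterial-like subgroup, and CA1 is highest in subgroup 1 in both groups. Some points rest on few nuclei, such as 5 for MGNS 1 in subgroup 1.

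The other genes with the smallest p that were higher in MGHS were mostly genes of the epithelium. CA1, a carbonic anhydrase that is abundant in rumen keratinocytes, stood at 777, 917 and 1656 CPM in MGHS 1 to 3, against 285, 179 and 162 CPM in MGNS 1 to 3. Its log2 fold change was 2.42 ± 0.34 (edgeR adjusted p = 0.0953), and 1.52 without the subgroups named above. Keratinocyte nuclei held 11079 CPM of CA1 in MGHS and 4241 CPM in MGNS. SELENBP1, a selenium-binding enzyme of sulfur metabolism, stood at 77.2, 97.3 and 76.6 CPM, against 11.7, 10.5 and 21.3 CPM, at a log2 fold change of 2.47 ± 0.31 (adjusted p by edgeR = 0.0920), and was too low to test without those subgroups. The keratins KRT13, KRT15 and KRT5 had log2 fold changes of 2.64, 2.12 and 1.90, which were 2.11, 1.31 and 0.46 without those subgroups. For the transcription factor PAX9 the values were 1.69 and 0.29, and for MEIS1 1.15 and 0.17. LYPD6 had a log2 fold change of 3.35 and reached 549.9 CPM in subgroup 5. GRM5 at 3.37 and NCAM1 at 2.84 held at most 30.6 CPM in any animal. GRM5 averaged 292 CPM in MGHS and 68.9 CPM in MGNS mural nuclei, and NCAM1 212 CPM in MGHS and 116 CPM in MGNS fibroblast nuclei.

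Keratinocyte markers moved with these values. The 12 measured keratinocyte markers, none at 0, summed to 631 to 1009 CPM in MGHS members and 319.8 to 442 CPM in MGNS members. Without the subgroups led by other classes the sums were 479 to 909 CPM and 186 to 315 CPM, and without subgroup 1 as well 196 to 453 CPM and 129 to 247 CPM, where the groups overlapped. Keratinocyte nuclei themselves held 7689 to 7972 CPM in MGHS and 6952 to 7547 CPM in MGNS, and fibroblast nuclei 511 to 983 CPM and 384 to 452 CPM. All 7 tested keratinocyte markers had a log2 fold change above 0 in members, with a median of 1.38. The 11 measured fibroblast markers, none at 0, summed to 962 to 1139.6 CPM in MGHS members and 159 to 828 CPM in MGNS members. Without both sets of subgroups they summed to 181 to 425 CPM and 107 to 183 CPM, with SCN7A at 0. The part of these markers in the genes that were higher in MGHS was not tested. After removal of both sets of subgroups edgeR tested 7664 genes and called 0 (0.0%), and the smallest adjusted p by edgeR was 0.169, for SELENOW, IGFBP3 and ACER2. Removal of only the subgroups led by other classes gave 9 calls (0.106%): SELENBP1, CA1, KRT13, KRT15, SELENOW and LOC101104808 higher, and PCSK5, PLCB4 and ACER2 lower in MGHS.

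Among the growth factor systems, IGF genes with a p under 0.05 were all lower in MGHS. These were 3 of 11 tested, IGFBP3, INSR and IGFBP4, where 3.71% of all genes were lower. INSR, the insulin receptor, stood at 32.4, 23.3 and 24.2 CPM in MGHS 1 to 3, against 37.1, 58.2 and 66.2 CPM in MGNS 1 to 3. IGFBP4, another IGF carrier, stood at 193, 238 and 226 CPM, against 302, 314 and 359 CPM. Neither gene overlapped between groups, with log2 fold changes of -1.06 ± 0.28 and -0.58 ± 0.17 (edgeR adjusted p = 0.326 and 0.369). The median over the list was -0.03, against 0.01 for all genes tested, and the ligand IGF2 had a log2 fold change of -0.28 ± 0.27 with overlap.

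Among the receptors of vessel growth, TEK stood at 348, 319 and 322 CPM in MGHS 1 to 3, against 338, 311 and 254 CPM in MGNS 1 to 3, with overlap (log2 fold change 0.12 ± 0.17). ANGPT2, which endothelial cells release and which counteracts TEK signalling in many settings, stood at 51.4, 126 and 59.6 CPM in MGHS 1 to 3, against 129, 216 and 162 CPM in MGNS 1 to 3. Every MGHS animal lay below every MGNS animal, MGHS 2 only just (log2 fold change -1.11 ± 0.36, edgeR adjusted p = 0.436). Of 5 tested angiopoietin and TIE genes it alone had a p under 0.05, where 3.71% of all genes were lower at that p. The list's median was -0.04. The median was -0.06 for 9 VEGF genes, with the co-receptor NRP1 at 0.42 ± 0.24. The ligands VEGFC and VEGFB did not overlap between the groups (-0.48 ± 0.18 and -0.46 ± 0.34), where 6.5% of all genes were lower in every MGHS animal. VEGFB rested on 12, 12 and 14 UMIs in MGHS 1 to 3, against 9, 12 and 15 UMIs in MGNS 1 to 3 (unadjusted p by edgeR = 0.210). Tip cell markers, of sprouting endothelium, had a median of -0.26 over 7 genes, and CXCR4, the receptor of the chemokine CXCL12, a value of -1.03 ± 0.43.

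For Notch, 8 of 16 genes lay above 0 and 8 below, with a median of 0.07 and 1 higher at a p under 0.05. In members without the subgroups led by other classes and subgroup 1, 4 of 14 were higher at a p under 0.05, where 3.71% of all genes were. HEY2, a Notch target of arterial endothelium, stood at 112, 87.4 and 83.8 CPM in MGHS 1 to 3, against 72.2, 72.1 and 50.1 CPM in MGNS 1 to 3, a log2 fold change of 0.53 ± 0.23 without overlap (edgeR adjusted p = 0.558). DLL4, by contrast, overlapped at -0.65 ± 0.53. BMP and TGF-beta genes had a median of 0.16 over 21 genes, with 2 higher and 3 lower at a p under 0.05. In that fit 5.13% of all genes were higher and 3.71% lower. SMAD1, which relays BMP signals, stood at 382, 516 and 439 CPM in MGHS 1 to 3, against 583, 872 and 829 CPM in MGNS 1 to 3. The groups did not overlap, at a log2 fold change of -0.79 ± 0.20 (adjusted p by edgeR = 0.312). The receptor BMPR2 stood at 433, 403 and 412 CPM, against 609, 686 and 483 CPM, and the protease HTRA1 was lower as well (-0.52 ± 0.18 and -0.47 ± 0.18). The inhibitory SMAD7 was higher at 0.76 ± 0.26, and the ligand TGFB2 at 1.70 ± 0.43, where mural nuclei held 762 CPM in MGHS and 445 CPM in MGNS, against 53.3 CPM and 17.8 CPM in members.

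Endothelial transcription factors leaned lower in MGHS, with 21 of 27 below 0, a median of -0.19 and 4 lower at a p under 0.05, where 4619 of all 9373 genes lay below 0 and 3.71% were lower. With the subgroups led by other classes and subgroup 1 left out, 17 of 25 lay below 0, with 2 higher and 2 lower. TCF4, a basic helix-loop-helix factor, stood at 3015, 3438 and 2458 CPM in MGHS 1 to 3, against 3793, 5696 and 3918 CPM in MGNS 1 to 3, and BCL6B, a repressor, at 54.8, 96.5 and 49.97 CPM, against 111, 106 and 114 CPM. Neither overlapped (log2 fold change -0.60 ± 0.22 and -0.72 ± 0.27, edgeR adjusted p = 0.477 and 0.483). ETV6 and HIF1A had values of -0.44 ± 0.18 and -0.64 ± 0.27, and ERG of -0.22 ± 0.19. The median of the arterial markers was -0.34 over 18 genes, 14 below 0 and 3 lower at a p under 0.05, where 3.71% of all genes were lower. Leaving out the same subgroups it was -0.26, with 9 of 16 below 0, 1 higher and 1 lower at a p under 0.05. GJA5 stood at 17.9, 14.98 and 21.0 CPM in MGHS 1 to 3, against 56.6, 39.5 and 32.0 CPM in MGNS 1 to 3, without overlap (log2 fold change -1.23 ± 0.31, edgeR adjusted p = 0.291, chosen after its values were seen). It was -0.53 without the subgroups led by other classes and subgroup 1, and fewer arterial-like nuclei and lower levels within them cannot be told apart in these sums. Venous markers had a median of -0.42, with 10 of 12 below 0 and 2 lower at a p under 0.05. That median was -0.07 without the same subgroups, with 7 of 11 below 0. The capillary markers had a median of 0.10 over 11 genes. ACKR1 at 12.3, 25.8 and 49.97 CPM, against 23.4, 43.0 and 152 CPM, overlapped, and so did SELP.

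Junction genes had a median of -0.08 over 21 genes, with 1 lower at a p under 0.05, where 3.71% of all genes were lower. This was the adhesion molecule MCAM (log2 fold change -1.41 ± 0.47). MCAM rested on 4, 20 and 18 UMIs in MGHS 1 to 3, against 9, 39 and 30 UMIs in MGNS 1 to 3. CDH5 and CLDN5 had values of -0.34 ± 0.25 and -0.70 ± 0.37 and overlapped. Genes of fenestrae and caveolae had a median of 0.06 with 0 of 11 at a p under 0.05, where 8.84% of all genes were. The caveolin CAV1 had a value of 0.10 ± 0.17. Basement membrane genes had a median of 0.07 over 24 genes, with the integrin ITGB3 at -1.65 ± 0.50 and at most 34.9 CPM, and the laminin LAMC1 at -0.46 ± 0.20. Genes of nitric oxide and vascular tone had a median of -0.02 over 19 genes, with the endothelin receptor EDNRB at -1.25 ± 0.46 and NOS3 at 0.04 ± 0.28. EDNRB reached 240 CPM in mural-led subgroup 10 and 167 CPM in lymphatic-led subgroup 7, against at most 18.5 CPM in any other subgroup. It was too low to test without the subgroups led by other classes.

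Coagulation genes had a median of -0.17 over 15 genes. F8, clotting factor VIII, which endothelium secretes, stood at 83.9, 101 and 74.1 CPM in MGHS 1 to 3, against 201, 158 and 129 CPM in MGNS 1 to 3. The groups did not overlap, at a log2 fold change of -0.92 ± 0.22 (adjusted p by edgeR = 0.291) and of -1.04 without the subgroups led by other classes and subgroup 1. S100A10, a plasminogen receptor subunit, was higher at 1.34 ± 0.47, and MGHS 3 alone held 500.5 CPM. Leukocyte adhesion genes had a median of -0.15, with 11 of 14 below 0, against 4619 of all 9373. MADCAM1 stood at 26.8, 26.6 and 66.1 CPM in MGHS 1 to 3, against 105, 68.6 and 87.5 CPM in MGNS 1 to 3, and MGHS 3 lay just under MGNS 2 (log2 fold change -1.11 ± 0.37, edgeR adjusted p = 0.436). Subgroup 3, which MADCAM1 led, also made up less of the MGHS than of the MGNS members on average, and without the subgroups led by other classes and subgroup 1 the value was -0.66.

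The next list was that of NF-kB and cytokine response, a pathway through which endothelium answers tumour necrosis factor and interleukins. Of 25 tested genes 21 lay below 0, against 4619 of all 9373, with a median of -0.58. At a p under 0.05, 10 of 25 were lower and 0 higher, where 3.71% of all genes were lower, and in 12 of 25 every MGHS animal lay below every MGNS animal, where 6.5% of all genes did. RELB, a subunit of the non-canonical NF-kB pathway, stood at 39.1, 34.1 and 29.8 CPM in MGHS 1 to 3, against 58.5, 86.1 and 72.6 CPM in MGNS 1 to 3, and its partner NFKB2 at 31.3, 25.8 and 26.6 CPM, against 50.7, 51.2 and 52.3 CPM. Both were below in every MGHS animal (log2 fold change -1.10 ± 0.24 and -0.90 ± 0.23, edgeR adjusted p = 0.222 and 0.291). The receptor adaptor TRAF1 had a value of -1.0 ± 0.25 and the interleukin-4 receptor IL4R of -0.91 ± 0.22. TRAF1 and IL4R were highest in the venous-like subgroup, at 205 CPM and 122 CPM. That subgroup averaged 6.72% of MGHS and 9.42% of MGNS members, and the part of this share in their values was not tested.

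BIRC3, an inhibitor of apoptosis, stood at 108, 78.2 and 121 CPM in MGHS 1 to 3, against 176, 159 and 294 CPM in MGNS 1 to 3 (log2 fold change -1.05 ± 0.27), and TNFAIP3, which ends the signal, at 29.1, 22.5 and 25.0 CPM, against 37.1, 52.3 and 82.2 CPM (-1.21 ± 0.31). Both were named after their values were seen, and neither overlapped between the groups. Without the subgroups led by other classes and subgroup 1, 17 of 22 genes lay below 0 with a median of -0.44, 9 were lower at a p under 0.05 where 3.63% of all genes were, and in 6 every MGHS animal lay below, where 5.83% of all genes did. Over 18 alternatives the median stayed between -0.68 and -0.36. The list was below 0 in other classes too, with a median of -0.97 over 27 genes in fibroblast nuclei, -0.69 over 18 in mural nuclei, -0.40 over 13 in lymphatic endothelial nuclei and -0.39 over 28 in keratinocyte nuclei. RELB averaged 34.4 CPM in MGHS and 72.4 CPM in MGNS members, and 20.3 CPM and 64.3 CPM in fibroblast nuclei, so its level was lower in MGHS in both classes.

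**Figure D5:**
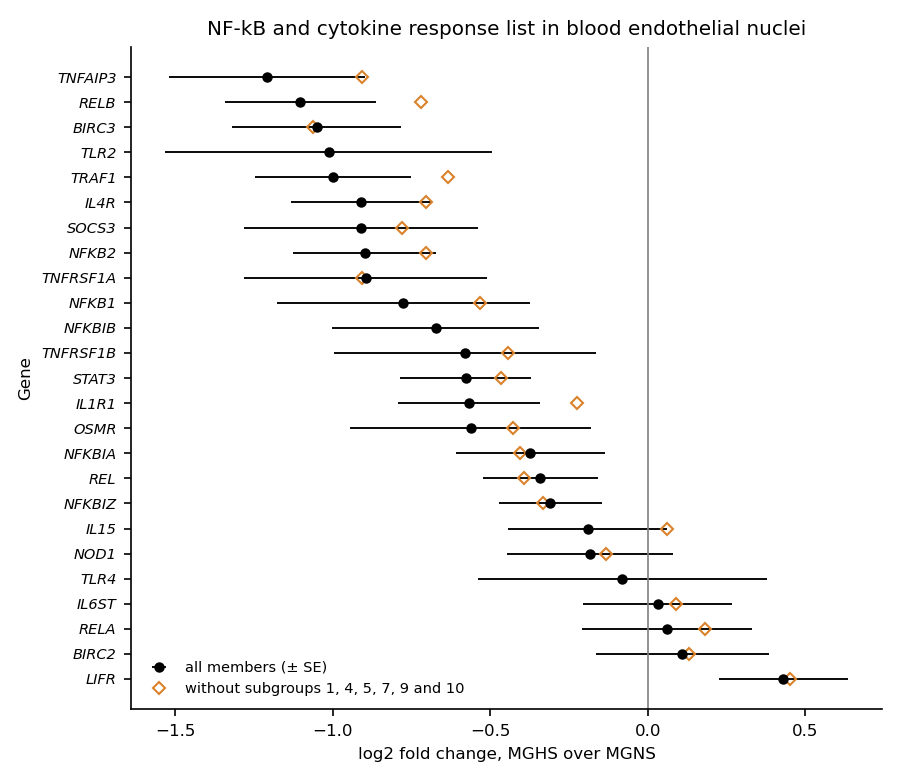
Log2 fold change of MGHS over MGNS in blood endothelial nuclei for the 25 tested genes of the NF-kB and cytokine response list; points with bars are all members ± SE, and diamonds the fit without subgroups 1, 4, 5, 7, 9 and 10, absent where a gene was too low to test. Of the 25 genes 21 lie left of 0, with RELB at -1.10 and NFKB2 at -0.90.

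Other immune lists also had medians below 0. Antigen presentation genes had a median of -0.24, with 14 of 17 below 0. NLRC5, which drives class I genes, had a value of -0.68 ± 0.24 and the class II chaperone CD74 of -1.32 ± 0.56, where MGNS 1 at 25.4 CPM lay below all MGHS animals. Of all 9373 genes 4619 lay below 0, and 3.71% were lower at a p under 0.05. Interferon genes had a median of -0.25, with 19 of 22 below 0, and 1 lower at a p under 0.05, ISG20 at -1.24 ± 0.55. Over the alternatives that median ran between -0.48 and 0.17, the highest without MGNS 2.

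Most redox genes had values above 0. Of 21 tested antioxidant genes 15 lay above 0 with a median of 0.31, and 6 were higher and 0 lower at a p under 0.05, where 5.13% of all genes were higher. GPX4 and GPX1 were named from the selenoprotein list and are not part of that count. GPX4, which reduces lipid hydroperoxides, stood at 67.1, 75.7 and 72.5 CPM in MGHS 1 to 3, against 41.0, 27.9 and 40.5 CPM in MGNS 1 to 3. Its log2 fold change was 0.97 ± 0.24 without overlap (edgeR adjusted p = 0.291), and 0.98 without the subgroups led by other classes and subgroup 1. GPX1, a glutathione peroxidase, stood at 82.8, 62.4 and 135 CPM, against 50.7, 25.6 and 48.0 CPM (1.17 ± 0.35, and 1.15 without those subgroups). Within the antioxidant list, HMOX1, heme oxygenase, stood at 57.0, 13.3 and 20.1 CPM, against 5.85, 5.82 and 6.40 CPM, and MGHS 1 was far above the other animals (2.24 ± 0.62). HMOX1 reached 159 CPM in keratinocyte-led subgroup 5 and at most 18.1 CPM in any other subgroup. MGST1 had a value of 1.44 ± 0.42 and 0.81 without the subgroups led by other classes and subgroup 1, and PRDX5 of 0.74 ± 0.29 and 0.34. Without them 1 of 19 antioxidant genes was higher at a p under 0.05, and in keratinocyte nuclei the list had a median of 0.70 over 23 genes. Selenoprotein genes had 13 of 16 above 0, with a median of 0.13 and 3 higher at a p under 0.05, SELENOW, GPX4 and GPX1. Without those subgroups 12 of 14 lay above 0, with 5 higher at a p under 0.05, where 3.71% of all genes were higher.

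In transport and metabolism, SLC16A1, a monocarboxylate carrier, stood at 53.7, 69.1 and 76.6 CPM in MGHS 1 to 3, against 39.0, 26.7 and 32.0 CPM in MGNS 1 to 3, and its chaperone BSG at 158, 191 and 293 CPM, against 119, 74.4 and 115 CPM. Neither overlapped (log2 fold change 1.04 ± 0.25 and 1.05 ± 0.27, edgeR adjusted p = 0.291 and 0.312), and both were higher in keratinocyte nuclei, where SLC16A1 averaged 807 CPM in MGHS and 453 CPM in MGNS. The bicarbonate carrier SLC4A4 and the metal carrier SLC39A14 were lower at -1.02 ± 0.31 and -0.78 ± 0.27. The transport list had a median of -0.21 over 27 genes and the lipid list one of 0.04 over 14, with the fatty acid carrier FABP5 at 0.92 ± 0.37. Hypoxia and glycolysis genes had a median of -0.13 over 22, with the glycolytic regulator PFKFB3 at -0.96 ± 0.29 without overlap. Immediate early genes had a median of -0.05 over 20, with FOSL2 at -0.83 ± 0.23 and the matricellular CCN1 at 0.89 ± 0.27. CCN1 reached 295 CPM in fibroblast-led subgroup 9 and at most 73.0 CPM in any other subgroup.

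The remaining lists concerned general cell state. Heat shock genes had a median of 0.12 over 16, with HSPB1 at 593, 544 and 774 CPM in MGHS 1 to 3, against 347, 236 and 415 CPM in MGNS 1 to 3 (log2 fold change 0.92 ± 0.23). Ribosomal protein genes lay above 0 in 31 of 32 cases, against 4754 of all 9373 genes, with a median of 0.29. Of the 32, 0 had a p under 0.05, where 8.84% of all genes had. The list lay above 0 in other classes too, with a median of 0.38 in lymphatic endothelial, 0.29 in mural, 0.22 in fibroblast and 0.53 in keratinocyte nuclei. The cell cycle list had 7 tested genes with a median of 0.50, and the spindle gene TPX2 stood at 20.1, 42.4 and 53.2 CPM, against 7.80, 19.8 and 13.9 CPM. Clock genes had a median of -0.09 over 17, with DBP at 1.02 ± 0.33 and BHLHE41 at 0.69 ± 0.26. The other marker lists had medians of 0.81 for 8 fibroblast, 0.33 for 8 mural, 0.62 for 5 lymphatic and 0.06 for 3 T and NK genes. They were -0.32 for 2 B and plasma genes, -0.42 for 1 myeloid and 1.01 for 1 glial gene.

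Last, the response of members to group was set against that of other nuclei from the same animals, as a type by group interaction in edgeR. Against 608 mural nuclei the test called 0 of 8968 genes (0.0%), with 523 at an unadjusted p under 0.05. IGFBP3 had the smallest p, with a difference of responses of -2.98 ± 0.38 on the log2 scale (edgeR adjusted p = 0.0600). It stood at 438, 430.2 and 591 CPM in MGHS and 224, 126 and 235 CPM in MGNS mural nuclei, so the mural gap ran against the endothelial one without overlap in either class. The difference passed in 3 of 8 alternatives, with adjusted p by edgeR between 0.0151 and 0.287. It also passed without the subgroups led by other classes (-2.97 ± 0.36, edgeR adjusted p = 0.00375), where 2 genes were called, and without subgroup 1 as well (-2.73 ± 0.33, edgeR adjusted p = 0.00417). Against 595 lymphatic endothelial nuclei 0 of 8967 genes were called (0.0%), with 461 at an unadjusted p under 0.05. The smallest adjusted p was 0.131, for ADA, an adenosine deaminase, and RAPGEF4, an exchange factor for small GTPases that cyclic AMP activates. RAPGEF4 stood at 920.4, 814 and 913 CPM in MGHS 1 to 3 and 829, 1013 and 692 CPM in MGNS 1 to 3 in members, against 188, 164 and 119 CPM and 44.1, 48.0 and 35.5 CPM in lymphatic nuclei, a difference of -1.81 ± 0.28. The adjusted p by edgeR was 0.747 for ADA and 0.346 for RAPGEF4 without the subgroups led by other classes.

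Against all other nuclei, 61 of 18583 genes were called (0.328%), 11 with a more positive and 50 with a more negative response in members. The other nuclei sum many cell types whose shares differ between animals, and their part in the calls was not tested. ARHGAP24, a GTPase activating protein, stood at 139.8, 121 and 86.2 CPM in MGHS members and 64.4, 62.8 and 42.7 CPM in MGNS members, against 138, 126 and 110.1 CPM and 400.5, 270.3 and 178 CPM in the other nuclei. Members were thus higher and the other nuclei lower in every MGHS animal, a difference of responses of 1.90 ± 0.24 (edgeR adjusted p = 0.000350). ARHGAP24 reached 820 CPM in mural-led subgroup 10 and 339 CPM in fibroblast-led subgroup 9. Without the subgroups led by other classes, members stood at 51.8, 47.8 and 34.5 CPM in MGHS and 23.8, 49.4 and 17.6 CPM in MGNS and overlapped, and the difference of responses was 1.41 ± 0.33 (edgeR adjusted p = 0.0210). KCNJ2, an inward rectifier potassium channel that sets the endothelial membrane potential, stood at 25.7, 59.1 and 8.87 CPM in MGHS members and 50.7, 70.9 and 33.1 CPM in MGNS members, with overlap. In the other nuclei it stood at 63.3, 76.0 and 7.94 CPM in MGHS and 6.51, 11.8 and 5.66 CPM in MGNS, and the difference of responses was -3.50 ± 0.33 (edgeR adjusted p = 7.96e-06). The number called was 23 with counts of 30 required per gene in place of 10, 37 without MGHS 1, 144 without MGHS 3, 139 without MGNS 3, 108 without the subgroups led by other classes, and 139 without subgroup 1 as well.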

How the data were processed

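Single-nucleus RNA of 6 lambs, 3 in MGHS and 3 in MGNS, was sequenced in 1 10x library each, from washed and frozen rumen tissue per the labels' protocols. The authors deposited unscaled UMI counts, whole numbers for every gene in every barcode. The file headers name Cell Ranger 8.0.0 as their source and the submitters' processing notes name 2.1.1. This difference was not resolved, and for the genome build, annotation, strand setting and barcode filter the entry is: not given in the sources. Near-identical and overlapping genes are therefore less certain. All 26741 gene numbers were matched to symbols in a RefSeq table (assembly ARS-UI_Ramb_v3.0), which gave names alone. Library totals were 34418856 to 59997793 UMIs.

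The members and gene lists were chosen with earlier results of these data known, so no list is independent evidence. Members were clustered in Python 3.11.15 with scanpy 1.11.5 and igraph 0.11.9 (1500 variable genes, 20 components, 4 neighbours per library, Leiden resolution 0.6), without the 17 genes of the rule, and with doublets from Scrublet kept. A subgroup took an "-like" name only from its markers. UMIs summed per animal went into edgeR 4.0.16 under R 4.3.3. Low genes were removed by filterByExpr (minimum count 10), libraries were scaled by TMM (factors between 0.987 and 1.01), and the robust quasi-likelihood F test was read at an adjusted p of 0.05. SE is the absolute log2 fold change over the square root of F. DESeq2 1.42.0 and limma 3.58.1 (voom with quality weights) were alternatives. Interactions had animal and type as terms. Lymphatic, mural, fibroblast and keratinocyte nuclei were chosen by at least 3 markers each and by the absence of others or at most 1 of them. Shares were compared by two-sided exact permutation over animals. On simulated counts the test in members recovered 93% of 4-fold and 20% of 2-fold changes, and 8 of its 121 calls were false. The changed genes in the simulations had an expected mean of at least 20 UMIs per animal, so recovery at lower counts was not measured. The interaction against mural nuclei recovered 46% of 4-fold and 4% of 2-fold changes, and 9 of its 59 calls were false. Its mural counts were simulated with the spread of each gene estimated in members. A count of 0 calls therefore does not show that 2-fold changes were absent.

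Named genes were the 20 with the smallest p and no overlap between groups, up to 4 per list with the smallest p, the rule's genes, the 15 protein coding genes with the highest ratio over the rest, and the genes with the smallest p of each interaction. Other list genes named in the text (BIRC3, TNFAIP3, GJA5, IGF2, CAV1, CXCR4, HTRA1, DLL4, ERG, NOS3, ENG, CDH5, COL4A1, RAMP2 and GPIHBP1) were chosen after their values were seen. A few genes that the rule names are not reported here. Replicate numbers were not read as pairs in the main test. Deviations from the group mean correlated at -0.01 to 0.16 in same-numbered animals and at -0.13 to 0.06 in different-numbered ones. So few animals cannot decide whether the numbers are pairs.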

Additional observations from a re-analysis of the deposited data

Results flagged for a closer look

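In 5 genes the response to group differed between blood endothelial nuclei and all other nuclei of the same animals by the edgeR interaction test, and each passed in 8 of 8 alternatives of scaling, filter and animals left out. Without the subgroups of members that carried genes of other classes 4 of the 5 passed, and ADA did not. KCNJ2 had a difference of responses of -3.50 on the log2 scale, with the values given in the report. For ADA, which degrades adenosine, the difference was -2.23: members stood at 152, 35.8 and 70.1 CPM in MGHS 1 to 3 and 150.2, 32.6 and 198 CPM in MGNS 1 to 3, against 319, 114 and 226 CPM and 70.5, 28.7 and 158 CPM in the other nuclei. ADA reached 1158 CPM in keratinocyte-led subgroup 5 and at most 41.8 CPM in the other subgroups. Without the subgroups led by other classes members stood at 27.4, 15.2 and 34.5 CPM in MGHS and 19.1, 5.07 and 13.2 CPM in MGNS. The difference of responses was then -0.42 ± 0.44 (edgeR adjusted p = 0.945), and the log2 fold change within members was 1.14, against -0.59 with all members. For KL, which encodes klotho, the difference was -5.40, but members held at most 13.9 CPM in any animal, against 6.40 to 19.3 CPM in MGHS and 0.0763 to 1.03 CPM in MGNS other nuclei. For ARHGAP24 it was 1.90, the only positive one of the 5. For COL25A1, a transmembrane collagen, it was -6.18, where members stood at 0, 0.832 and 3.22 CPM in MGHS and 85.9, 3.49 and 18.1 CPM in MGNS, so that MGNS 1 decided most of the endothelial level. The other nuclei held 18.5, 16.8 and 21.7 CPM of COL25A1 in MGHS and 10.4, 2.80 and 4.12 CPM in MGNS.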

How the results depend on the processing

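The edgeR test called 0 genes in members, as did limma-voom, DESeq2's size factors, a minimum count of 30, the removal of doublets and a minimum of 1000 genes per nucleus. Other settings gave 64 calls with DESeq2, 296 with no filter on low counts, 3 with at least 4 markers per member, 1 with 0 UMIs of the keratinocyte and stromal rule genes, and 9 without the subgroups led by another class. Leaving out 1 animal gave 0 to 3 calls, the 3 without MGNS 3. With the replicate number as a block 10 genes were called, all higher in MGHS. The paired difference in share is 1.36 points by construction. Whether equal replicate numbers stand for paired animals cannot be decided from so few animals, and same-numbered animals did not deviate together in every pair. For the interactions, leaving out 1 animal gave 0 to 1 calls against lymphatic nuclei, the 1 without MGHS 1, and 0 to 13 against mural nuclei, the 13 without MGNS 3 and 1 each without MGHS 2 and MGNS 2. DESeq2's size factors gave 1 against mural nuclei. Against the rest the range was 37, without MGHS 1, to 144, without MGHS 3, and a minimum count of 30 gave 23. Without the subgroups led by another class the interaction calls were 2 against mural nuclei and 108 against the rest, and 2 and 139 without subgroup 1 as well. The cause of these differences was not tested. In 3 genes with no call the direction turned without MGNS 2. With 1 animal left out, the log2 fold change ran from -0.33 to 0.0561 for TIE1, from -0.25 to 1.0 for ANGPT1 and from -1.20 to 0.0942 for IFIT1. The difference in share lay between 0.374 and 2.36 points over its alternatives, higher in MGHS in each. The 2.36 is of non-keratinocyte nuclei only. With at least 1000 genes per nucleus it was 1.51 points without overlap (exact permutation p = 0.1). The lowest sum of member UMIs was that of MGNS 1, with 512498 UMIs of 92 members, while its median of 5110 UMIs per member was the highest.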
